A study of Mus musculus with 7 samples.

Results

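The expressed processed pseudogenes of mouse kidney were compared with their parent genes, the protein-coding genes that they were copied from, in 7 RNA-seq libraries. The set held 121 genes of the 1095 that the deposited table of CPM (read counts scaled to library size) annotated as processed pseudogenes. Members were chosen by their level, a mean of at least 5 over the 7 deposited CPM values, so the level is given only as a description. Just inside the limit lay Rab11b-ps2 at a mean of 5.14 CPM, Rps12-ps9 at 5.09 and Gm6055 at 5.05, and just outside it Rps6-ps4 at 4.95, Rps13-ps2 at 4.94 and Tcea1-ps1 at 4.802.

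A processed pseudogene arises when a messenger RNA is reverse transcribed and the copy is inserted back into the genome, usually without the introns and the promoter of its parent. Genes with abundant transcripts, among them those of ribosomal proteins, have left many such copies. Because a copy keeps most of the parent's exon sequence, a short read from either transcript can match both places, and its assignment then rests on the aligner and the counting rule.

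The animals were male mice, either wild type (WT, replicates 1, 2 and 4) or carrying a double knockout (DKO, replicates 1 to 4) of Hs3st3a1 and Hs3st3b1, which encode sulfotransferases acting on heparan sulfate. Values per library are given in that order throughout. Each library carried its own animal number and was taken as 1 animal, from whole kidney. The labels state neither age nor strain, nor which alleles were used or how a deletion was driven. The library kit does not mark the strand, and the labels do not say how reads matching several places were counted.

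Gene counts ranged from 18330833 to 24259231 per library. Kidney markers were present in every library, with Umod of the thick ascending limb at 2837 to 7927 CPM, Slc34a1 of the proximal tubule at 2943 to 5010, Aqp2 of the collecting duct at 273 to 699 and Slc12a3 of the distal convoluted tubule at 334 to 531. Hs3st3a1 received 12 to 29 reads in WT and 0 to 3 in DKO, whereas Hs3st3b1 received 56 to 112 and 33 to 108.

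Of the 121 pseudogenes, 120 aligned to a protein-coding transcript with at least 80% identity over at least 50% of their length. Gm15823 did not. In 118 of them the chosen parent had reads, and these 118 pairs with 114 parents are described below. Identity to the parent ran from 88.7% to 100%, with a median of 99.1%, and 15 copies were identical to the parent transcript over the aligned stretch. One merged exon made up 118 of the 121 pseudogenes, and their median exon length was 599 bases against 4008 for all 15394 genes tested. Exon length here merges the exons of all annotated transcripts of a gene, so it can exceed that of any single transcript.

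Ribosomal copies show how close a pseudogene can stay to its parent and how few bases can tell the transcripts apart. The sequences are from GENCODE M21 transcripts on GRCm38, 5′ to 3′, over 90 bases of the parent's coding sequence, and capitals mark the bases that differ between copy and parent. Gm9843 (chr16:76403563-76403652, minus strand) is identical here to Fau, which encodes a ubiquitin-like protein fused to ribosomal protein S30, so 1 line stands for both. Rpl3-ps1 (chrX:13202572-13202661, plus strand) differs from Rpl3, which encodes a protein of the large ribosomal subunit, at 1 base. Rps12-ps9 (chr8:123206650-123206739, plus strand) differs from Rps12, which encodes a protein of the small subunit, at 2 bases.
Gm9843 and Fau: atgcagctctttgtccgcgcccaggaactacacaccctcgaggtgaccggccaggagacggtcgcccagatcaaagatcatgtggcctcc
Rpl3-ps1: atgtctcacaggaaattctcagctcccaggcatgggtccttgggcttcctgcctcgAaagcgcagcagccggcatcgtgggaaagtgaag
Rpl3: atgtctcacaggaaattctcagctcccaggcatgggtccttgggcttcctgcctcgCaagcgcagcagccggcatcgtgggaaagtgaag
Rps12-ps9: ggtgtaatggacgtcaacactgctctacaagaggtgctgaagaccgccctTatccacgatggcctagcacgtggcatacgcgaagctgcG
Rps12: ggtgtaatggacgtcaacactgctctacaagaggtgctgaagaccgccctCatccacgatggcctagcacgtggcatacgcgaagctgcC

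More diverged copies were also in the set. Gm11539 (chr11:96249057-96249146, plus strand) differs from Rpl18, of the large ribosomal subunit, at 4 bases of the window shown. Fth1-ps, which has 2 exons on the minus strand of chromosome X, differs at 10 bases from Fth1, the heavy chain of the iron storage protein ferritin.
Gm11539: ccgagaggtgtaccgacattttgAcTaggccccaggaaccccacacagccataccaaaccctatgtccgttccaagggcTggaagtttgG
Rpl18: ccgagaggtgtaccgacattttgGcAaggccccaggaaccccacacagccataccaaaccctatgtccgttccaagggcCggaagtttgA
Fth1-ps: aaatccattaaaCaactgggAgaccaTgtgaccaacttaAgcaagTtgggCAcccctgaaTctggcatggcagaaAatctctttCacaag
Fth1: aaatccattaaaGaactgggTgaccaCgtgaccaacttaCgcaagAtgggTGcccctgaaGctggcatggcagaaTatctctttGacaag

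To put a number on this likeness, every stretch of 50 bases along a pseudogene was looked up in the parent's transcripts. A median of 64.7% of these stretches occurred unchanged in the parent. In 14 pairs all of them did, and in 10 pairs fewer than 25% did. A read from an unchanged stretch cannot be told apart from a parent read by its sequence, so the counts of such pairs are uncertain. The labels do not state the read length.

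The pseudogenes were a small part of each library and their parents were abundant. Together they took 0.176% to 0.257% of the reads of a library. Their mean level ran from 5.05 to 224 CPM, with a median of 8.78, and single libraries held 29 to 6287 reads of a pseudogene. The parents had a median of 174 CPM, their median percentile by CPM among the genes tested was 93.1, and 71 of the 114 parents lay in the top 10%. A pseudogene had a median of 6.68% of its parent's reads, and of 26.3% when both were divided by merged exon length. Merging can lengthen a parent with several transcripts, which raises the share per length of its copy. For Fth1 the merged length was 3469 bases, against 929 in the transcript whose sequence is shown.

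The pseudogene with the highest level was Gm5424 (chr10:62071123-62072362, plus strand, 1 exon, overlapping no other gene), a copy of Ass1, the urea cycle enzyme argininosuccinate synthase. Its WT libraries (replicates 1, 2 and 4) held 4317, 5203 and 4336 reads and its DKO libraries (replicates 1 to 4) 6287, 2914, 4129 and 5420. These counts were 16.4% to 18.3% of the Ass1 reads in every library, although the CPM of Gm5424 was lowest in DKO replicate 2 (153) and highest in WT replicate 2 (277). The next in level were Fth1-ps at a mean of 112 CPM, Mpc1-ps at 105, Gm8566 at 95.5 and Oaz1-ps at 59.4. Their parents encode ferritin heavy chain, a mitochondrial pyruvate carrier subunit, superoxide dismutase 1 and ornithine decarboxylase antizyme 1.

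Per merged exon length, 12 pseudogenes had a higher read count than their parent. These shares are upper values where the parent's merged length exceeds that of its main transcript. Mpc1-ps had 50.9% to 56.6% of the Mpc1 reads, which came to a median of 344% per length. Gm10039, a copy of the ATP synthase gene Atp5g1, had 10.03% to 11.1% of the reads and a median of 126% per length. Gstp-ps against Gstp2 (1848%) and Dynlt1-ps1 against Dynlt1a (6972%) were the extremes. Dynlt1-ps1 was equally close to Dynlt1c and Dynlt1f, against which its medians were 39979% and 3999%, so its value depends on the parent taken. These parents had few reads per library, 23 to 66 for Dynlt1a, 2 to 8 for Dynlt1c and 25 to 60 for Dynlt1f.

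For ribosomal protein parents the set held 17 pseudogenes of 15 genes, and most of these kept a nearly fixed share of their parent's reads. Gm11478, equally close to Rpl13a and to a gene without reads, is not among the 17 and is described below. Rps14, of the small subunit, was among the parents with 2 copies, which share their parent's counts and are not independent. In 14 of the 17 pairs the log2 ratio of pseudogene to parent varied less over the 7 libraries than the pseudogene itself did. The median SD of that ratio was 0.11, against a median SD of 0.40 for the pseudogene's own log2 CPM and a median of 0.11 that read counting alone gives. The 3 pairs in which it did not vary less were Rpl3-ps1, Gm11539 and Rps12-ps9.

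**Figure D1:**
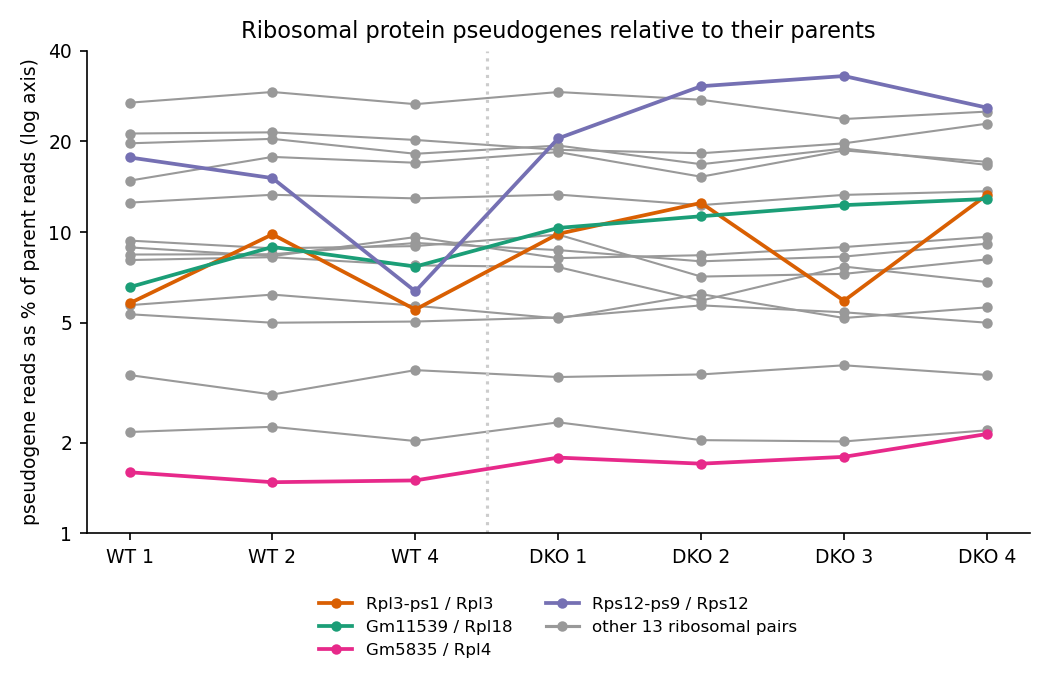
Reads of each ribosomal protein pseudogene as a percentage of its parent's reads (log axis) in the 7 libraries, with the dotted line between WT and DKO and 1 line per pair. The 13 grey pairs run nearly level, whereas Rps12-ps9 spans 6.36% to 33.0% and Rpl3-ps1 spans 5.53% to 13.3%.

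Rps25-ps1 (chr6:145266400-145266777, plus strand, 1 exon, overlapping no other gene), a copy of the small-subunit gene Rps25, had 590, 696 and 861 reads in WT and 664, 351, 429 and 577 in DKO. Its CPM in DKO lay below every WT library, at 36.1 ± 5.30 in WT (SD, n = 3) and 23.2 ± 4.45 in DKO (SD, n = 4). As a share of Rps25 reads it stayed between 7.997% and 9.20% in all 7 libraries. The log2 fold change of DKO over WT was -0.63 for the pseudogene (SE 0.18) and -0.61 for Rps25 (SE 0.18).

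Both copies of Rps14 kept a nearly fixed share of its reads in each library. Gm5805 (chr15:81972390-81972845, plus strand) had 314, 322 and 728 reads in WT and 299, 194, 178 and 295 in DKO, so its high value was WT replicate 4. It made up 5.17% to 6.22% of Rps14 reads. Gm6204 (chr3:53692422-53692878, minus strand) had 184, 150 and 445 reads in WT and 191, 105, 124 and 176 in DKO, with the same replicate 4 standing out, and 2.89% to 3.61% of Rps14 reads. Log2 fold changes were -1.02 (SE 0.26) for Gm5805, -0.90 (SE 0.31) for Gm6204 and -0.94 (SE 0.28) for Rps14. Of their stretches of 50 bases, 35.4% and 44.1% occurred unchanged in the parent.

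Gm9843, the copy identical to Fau, had 498, 504 and 857 reads in WT and 634, 239, 343 and 521 in DKO. The groups overlapped, with the highest count in WT replicate 4 and the lowest in DKO replicate 2. It held 23.7% to 29.2% of the Fau reads. Rps16-ps2, Gm14303 and Rpl10a-ps1 were likewise identical to Rps16, Rps29 and Rpl10a over the aligned stretch and held 18.3% to 22.9%, 16.7% to 20.4% and 14.8% to 18.7% of their reads.

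Copies with more differences kept their share as well. Gm9625, a copy of the ribosomal stalk gene Rplp0 with 31.1% of its stretches unchanged, held 2.02% to 2.34% of Rplp0 reads. Gm5905 (43.7% unchanged) held 5.001% to 5.71% of the reads of Rps9. For Rpl14-ps1 (78.3% unchanged) the share of Rpl14 reads was 12.3% to 13.7%, with a ratio SD of 0.05.

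Rpl3-ps1 was the most abundant ribosomal pseudogene and did not follow Rpl3. It had 610, 1035 and 594 reads in WT and 1196, 1096, 665 and 1616 in DKO. The shares of Rpl3 reads lay at 5.53% to 5.91% in WT replicates 1 and 4 and DKO replicate 3, at 9.83% and 9.86% in WT replicate 2 and DKO replicate 1, and at 12.5% and 13.3% in DKO replicates 2 and 4. Both genotypes therefore held low and high libraries. The ratio had an SD of 0.54, where read counting alone gives 0.05, while Rpl3 itself had an SD of 0.11 and the summed reads of both genes 0.10. The DKO minus WT difference of the log2 ratio was 0.54 (exact two-sided permutation test over libraries, p = 0.171).

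Rps12-ps9 went the other way from Rps12. Its reads were 86, 68 and 48 in WT and 113, 122, 152 and 152 in DKO, so all DKO libraries were above all WT libraries. As a share of Rps12 reads it was 17.7%, 15.1% and 6.36% in WT and 20.5%, 30.5%, 33.0% and 25.9% in DKO. The log2 fold change was 0.88 for the pseudogene (SE 0.27) and -0.28 for Rps12 (SE 0.17). The log2 ratio was higher by 1.16 in DKO. Rps12-ps9 reached the limit of 5 CPM only through its DKO libraries (WT mean 3.45 CPM), so these differences are a description and carry no test. Summed over both genes, log2 CPM had an SD of 0.15. Rps12-ps9 lies in introns of Chmp1a on the opposite strand and of the read-through gene Gm20388 on its own strand.

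Gm11539 and Gm5835 also had a higher share of their parent's reads in every DKO library than in any WT library. For Gm11539 against Rpl18 the shares were 6.56%, 8.93% and 7.68% in WT and 10.3%, 11.3%, 12.3% and 12.9% in DKO, a log2 ratio difference of 0.60. For Gm5835 against Rpl4, of the large subunit, they were 1.59%, 1.48% and 1.498% in WT and 1.78%, 1.70%, 1.79% and 2.14% in DKO, a difference of 0.27. For Gm11539 the exact permutation p was 0.0286, the smallest that 3 against 4 libraries allow. Gm5835, with a WT mean of 4.75 CPM, entered the set through its DKO libraries and is given as a description. The copies had log2 fold changes of 0.21 (SE 0.20) and 0.30 (SE 0.22), neither past an unadjusted p of 0.05, while Rpl18 had -0.39 (SE 0.15) and Rpl4 0.01 (SE 0.19).

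Across all 118 pairs the ratio varied less than the pseudogene in 109, and the log2 fold changes of pseudogene and parent had the same sign in 108. The median SD of the log2 ratio was 0.13, that of the pseudogenes' own log2 CPM 0.34 and that expected from counting alone 0.12. In 79 pairs the ratio's SD was at most 1.5 times the counting SD and in 8 it was over 3 times. Leaving out any 1 library left 103 to 111 and 106 to 109 pairs in those first counts. When each pseudogene was set against all 114 parents in turn, its own parent gave the smallest ratio SD for 60 pseudogenes and one of the 5 smallest for 84, and the SD against all parents, taken as each pseudogene's median, had a median of 0.37.

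**Figure D2:**
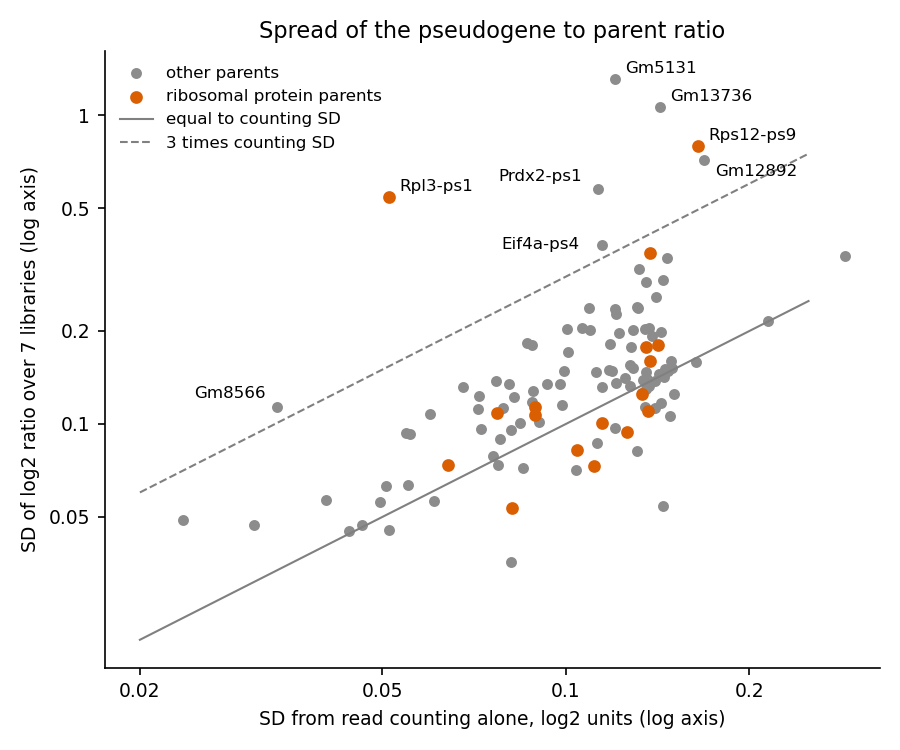
SD of the log2 ratio of pseudogene to parent over the 7 libraries against the SD that read counting alone would give, both on log axes, 1 point per pair and ribosomal protein parents in orange. Most points lie near the solid line of equality and 8 lie above the dashed line of 3 times the counting SD.

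The tightest pairs included abundant copies of several kinds. Oaz1-ps held 8.65% to 9.43% of Oaz1 reads, and Gm9816 held 12.5% to 13.5% of the reads of Gps1, a subunit of the COP9 signalosome. Gm7204 held 0.833% to 0.905% of the reads of Prdx1, which encodes a peroxidase, and Gm5436 held 6.04% to 6.67% of those of the ATP synthase gene Atp5o. In these last copies only 25.9% and 25.4% of the stretches occurred unchanged in the parent.

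Fth1-ps shows the same in a strongly diverged copy. Only 12.5% of its stretches were unchanged in Fth1 and its identity was 90.5%. It had 2047, 2615 and 2121 reads in WT and 2966, 1777, 1955 and 2761 in DKO, and the groups overlapped. The share of Fth1 reads was 2.22% to 2.45%, with a ratio SD of 0.05 against an own SD of 0.21. Log2 fold changes were -0.07 (SE 0.18) and -0.08 (SE 0.21) for copy and parent.

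With more shared sequence the ratio of pseudogene to parent was higher in level, while its SD over libraries was similar. From pairs with under 25% of stretches unchanged (10 pairs) through 25% to 50% (34), 50% to 75% (29) and 75% to under 100% (31) to pairs with all unchanged (14), the median level of the pseudogene per length was 5.39%, 11.8%, 26.6%, 43.8% and 70.5% of the parent. Over the same classes the median ratio SD was 0.16, 0.13, 0.14, 0.13 and 0.13. Read counting alone gave medians of 0.12, 0.11, 0.12, 0.11 and 0.13. The pseudogenes' own SD had medians of 0.26, 0.34, 0.41, 0.29 and 0.47. Relative to both, the ratio was tightest with all stretches unchanged and loosest in the class under 25%. The ratio varied less than the pseudogene in 8 of 10 pairs of the first class and 13 of 14 of the last. Classes share libraries and parents, so this is a description across genes. Lengths are again merged over transcripts, which can raise these percentages.

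Many pseudogenes lie inside other genes, whose unspliced RNA can also give reads there. Of the 121, 39 overlapped another annotated gene and 3 of these overlapped an exon. For the 22 with both a tested protein-coding host and a tested parent, the ratio to the parent had the smaller SD in 20, with medians of 0.14 to the parent and 0.53 to the host. Mpc1-ps lies in an intron of Zfp839, whose log2 fold change was 0.68, while Mpc1-ps had -0.67 and Mpc1 -0.59. Rps12-ps9 in Chmp1a was among the exceptions. The host level was its gene count, and reads from its introns were not measured separately. Some hosts had few reads, such as Adgrd1 at 0.58 to 1.36 CPM, so ratios to them also vary through counting. The 22 pairs share the 7 libraries and were not tested further.

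Between genotypes the pseudogenes were mostly lower in DKO, by about as much as their parents, and none passed edgeR's adjusted threshold over all genes. Of 121, 96 had a log2 fold change below 0 (79.3%, against 46.8% of all genes tested), and the median was -0.42 against 0.04 for all genes. By edgeR, 0 passed at an adjusted p under 0.05 (0.0% of all genes), and the smallest adjusted p was 0.163. At an unadjusted p under 0.05, 48 were lower (39.7%, against 11.3% of all genes) and 3 were higher (9.86% of all genes), where 21.1% of all genes passed in either direction. DESeq2 called 16 as lower at an adjusted p under 0.05 (2.51% of all genes) and 0 as higher (1.49% of all genes). In 41 pseudogenes all DKO libraries were below all WT libraries (8.99% of all genes) and in 3 all were above (8.36% of all genes). Because the limit was set on the mean of all libraries, 16 pseudogenes entered with a DKO mean under 5 CPM, all 16 with a log2 fold change below 0, and 4 with a WT mean under it, all above 0. Of these, 10 and 2 are among the 48 and 3. Of the 101 with both means at or over the limit, 80 were below 0, with a median of -0.40. Among these, 38 were lower and 1 higher at an unadjusted p under 0.05, and DESeq2 called 13 as lower. All DKO libraries were below all WT libraries in 33 of the 101 and above them in 2. In whole kidney, fewer cells of a type and less RNA per cell cannot be told apart.

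WT replicate 4 and DKO replicate 2 stood at the ends of this difference. The median deviation of the 121 pseudogenes from the WT mean, in log2 CPM, was -0.15, -0.01 and 0.14 in WT and -0.17, -0.55, -0.38 and -0.29 in DKO. WT replicate 1 was thus as low as DKO replicate 1. Without WT replicate 4 the number lower at an unadjusted p under 0.05 was 20, and without DKO replicate 2 it was 28. The shares of all genes in these smaller fits are not given, so the counts are a description. The pseudogenes' median log2 fold changes there were -0.29 and -0.32, against 0.03 and 0.03 for all genes.

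Parents and other short genes had the same order of libraries. The 114 parents deviated by medians of -0.12, -0.04 and 0.15 in WT and -0.20, -0.50, -0.33 and -0.24 in DKO, and their median log2 fold change was -0.33, with 49 lower and 3 higher at an unadjusted p under 0.05. For 759 other tested genes whose exon length lay within the middle range of the pseudogenes (441 to 1009 bases), the median log2 fold change was -0.42 and 74.3% were lower. Of these 759, 8 were parents of pseudogenes in the set, and without them the median was -0.41. In a further edgeR fit, a trend on exon length and GC content over all genes was removed within each library before testing. There 19 pseudogenes were lower (15.7%, against 12.2% of all genes) and 10 higher (8.26%, against 4.38% of all genes) at an unadjusted p under 0.05. The pseudogenes' median was -0.15 against -0.07 for all genes. In that fit 76 pseudogenes had a value below 0 and 45 above (62.8% below, against 58.3% of all genes).

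**Figure D3:**
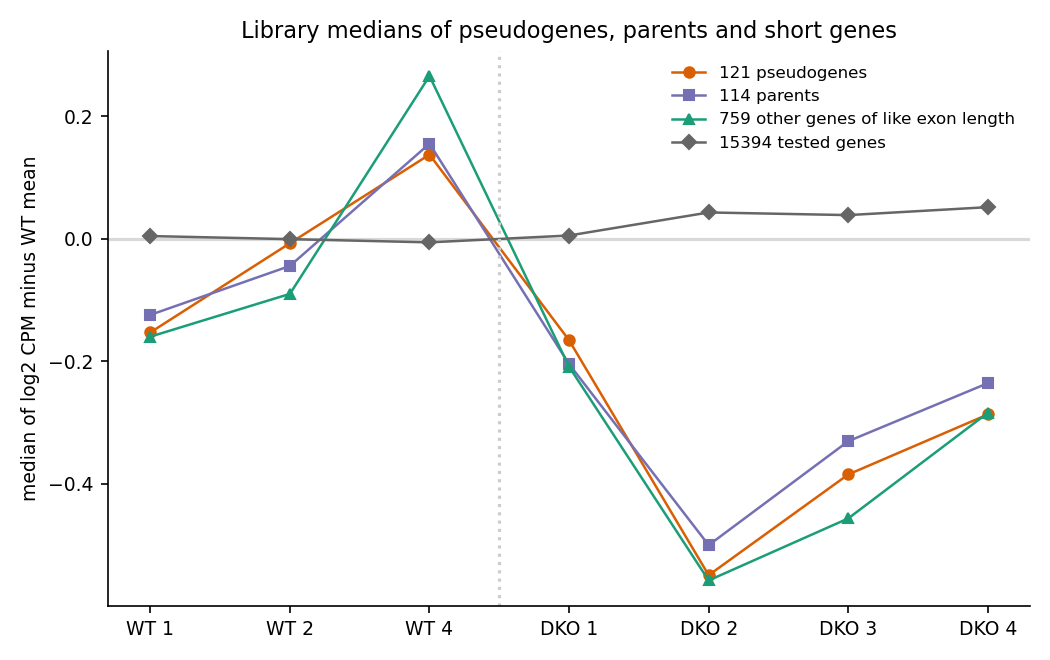
Median over genes of log2 CPM minus the WT mean in each of the 7 libraries, for the 121 pseudogenes, their 114 parents, 759 other genes of like exon length and all 15394 tested genes. The first 3 lines run together, highest in WT replicate 4 and lowest in DKO replicate 2 (-0.55 for the pseudogenes), while the line of all genes stays near 0.

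For the ribosomal group, which leaves out Gm11478, 13 of 17 pseudogenes and 14 of 15 parents had a log2 fold change below 0 (46.8% of all genes). Their medians were -0.40 and -0.39. At an unadjusted p under 0.05, 5 pseudogenes were lower and 1, Rps12-ps9, was higher (entering only through DKO, as above), and 6 parents were lower. Of all genes, 11.3% were lower and 9.86% higher at that p. Of 94 genes listed by ribosomal protein symbols, 88 were tested. The list also took in genes with pseudogene symbols that GENCODE annotates as protein-coding, such as Rpl10-ps3 and Rpl9-ps6, and Rps19bp1, an RPS19-binding protein. Among the 88, 87 were lower (46.8% of all genes), with a median of -0.55. At an unadjusted p under 0.05, 56 were lower (11.3% of all genes). However, 0 passed edgeR's adjusted threshold, and DESeq2 called 20 as lower (2.51% of all genes). Without the genes with pseudogene symbols and Rps19bp1, 84 of 85 were lower, with a median of -0.57, and 54 were lower at an unadjusted p under 0.05. DKO replicate 2 again stood lowest, at a median of -0.89 for the ribosomal pseudogenes and -0.73 for their parents. Without it the pseudogenes' median was -0.26. With the length and GC trend removed, 11 of 17 pseudogenes were below 0 (58.3% of all genes), with a median of -0.16. DESeq2 called 2 of the 17 pseudogenes as lower (2.51% of all genes), Gm5805 (adjusted p = 0.0281) and Rps25-ps1 (adjusted p = 0.0499).

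**Figure D4:**
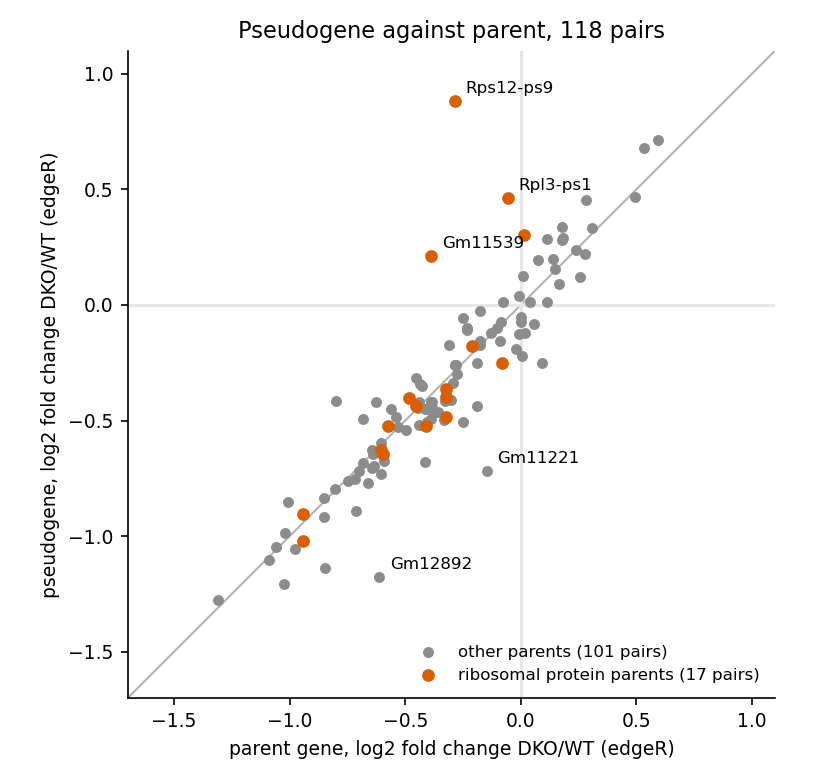
Log2 fold change of DKO over WT of each pseudogene (vertical axis) against that of its parent (horizontal axis) by edgeR, 118 pairs, with the diagonal marking equal values. Most pairs lie along the diagonal in the lower left, and the ribosomal copies Rps12-ps9 (0.88 against -0.28), Rpl3-ps1 and Gm11539 lie above it.

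Pseudogene and parent fold changes differed by a median of 0.08 in absolute value, by at most 0.1 in 69 of the 118 pairs and by over 0.25 in 11. Across pairs Pearson's r was 0.90 and Spearman's rho 0.91 (0.74 and 0.88 in the 17 ribosomal pairs). All pairs come from the 7 libraries and a pair can share reads, so these values describe the set and carry no p.

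Copies of respiratory chain and ATP synthase genes, taken by the symbol of the parent, numbered 11, without Gm14539, the copy of Usmg5 described below. All 11 had a log2 fold change below 0 (46.8% of all genes), with a median of -0.69 against -0.66 for their parents. At an unadjusted p under 0.05, 9 were lower (11.3% of all genes). Those with a DKO mean under 5 CPM, among them Ndufs5-ps, entered the set through WT, so their lower values are a description. The counts and medians of this group include them and were not redone without them, so these too are a description. Gm10250, a copy of the ATP synthase gene Atp5h, had 678, 758 and 1187 reads in WT and 696, 415, 432 and 721 in DKO. Its CPM was lower in each DKO library than in any WT library, at 43.9 ± 11.2 (SD, n = 3) in WT and 25.9 ± 4.61 (SD, n = 4) in DKO, and the share of Atp5h reads was 6.60% to 8.11%. The log2 fold change was -0.75 (SE 0.20, edgeR adjusted p = 0.163, DESeq2 adjusted p = 0.0356). DESeq2 called 3 of the 11 as lower (2.51% of all genes). With the length and GC trend removed, 10 of the 11 stayed below 0 (58.3% of all genes), with a median of -0.37. In that fit 4 were lower at an unadjusted p under 0.05, where 12.2% of all genes were.

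In the translation group (initiation and elongation factors with Tpt1, Naca and Btf3) 7 of 10 copies were lower (46.8% of all genes), with a median of -0.30. Tpt1-ps3, identical to the transcript of the translationally controlled tumor protein gene Tpt1, had 442, 364 and 756 reads in WT and 409, 193, 257 and 334 in DKO and held 5.69% to 6.80% of Tpt1 reads. Gm6863, a copy of Naca of the nascent polypeptide-associated complex, had a log2 fold change of -0.45 against -0.44 for Naca. All 5 copies of proteasome genes were lower (46.8% of all genes), with a median of -0.50. Among them was Gm6542, with -0.64 as in its parent Psma4. Gm6542 had a DKO mean under 5 CPM and entered the set through WT, so its value is a description. Copies of glycolysis genes had a median of -0.13 (4 copies) and of chaperone genes -0.26 (5 copies). Of these 9, 0 were past an unadjusted p of 0.05, where 21.1% of all genes were. With the trend removed, the medians were -0.03 for the translation copies, -0.17 for the proteasome copies, 0.09 for the glycolysis copies and -0.07 for the chaperone copies.

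Of the other pseudogenes with the smallest p on the lower side, Dynlt1-ps1, a copy of the dynein light chain genes, had 181, 190 and 326 reads in WT and 137, 137, 102 and 162 in DKO. Its log2 fold change was -0.89 (SE 0.21, edgeR adjusted p = 0.163). Gm15823, the pseudogene without a parent, had 261, 217 and 288 reads in WT and 184, 123, 128 and 243 in DKO, a log2 fold change of -0.73 (SE 0.19). In CPM, all DKO libraries of both were below all WT libraries.

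The pseudogenes higher in DKO at an unadjusted p under 0.05 were Rps12-ps9, Ncoa4-ps and Gstm2-ps1. Of these, Rps12-ps9 and Gstm2-ps1 had WT means under 5 CPM and entered the set through DKO, so their values are a description. Ncoa4-ps, a copy of the ferritin autophagy receptor gene Ncoa4, had 100, 117 and 88 reads in WT and 186, 162, 212 and 158 in DKO. Its share of Ncoa4 reads was 14.3% to 18.8%, and copy and parent had log2 fold changes of 0.71 (SE 0.23) and 0.60 (SE 0.21). Gstm2-ps1 had 0.68 (SE 0.29) and its best match, the glutathione transferase gene Gstm1, 0.53 (SE 0.18). Gm12183, next in order, had 0.47 (SE 0.21) and its parent, the RNA helicase gene Ddx5, 0.50 (SE 0.16).

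Among the widest ranges over libraries were those of Gm14539 and Gm4540, which their parents shared. Gm14539, identical to Usmg5, a small ATP synthase subunit gene, had 480, 593 and 1724 reads in WT and 553, 282, 153 and 707 in DKO, yet it stayed at 13.1% to 15.1% of Usmg5 reads. Gm4540 had 431 reads in WT replicate 4 and 79 to 143 elsewhere and stayed at 14.8% to 18.2% of the reads of 1810022K09Rik.

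Gm11478, with the lowest log2 fold change of the set (-1.45, SE 0.37, edgeR adjusted p = 0.163), had 422, 452 and 1301 reads in WT and 418, 179, 231 and 314 in DKO. Its alignment scored equally to the read-through gene Gm45713, which had 0 reads, and to Rpl13a of the large ribosomal subunit. Set against Rpl13a it had a median of 187% of the reads and a ratio SD of 0.18 against an own SD of 0.89, a pairing chosen after its values were seen. Gm7730, equally close to the unread Gm20390 and to Nme2, a nucleoside diphosphate kinase gene, had a median of 128% of Nme2 reads and a ratio SD of 0.25 against 0.59, a pairing picked in the same way.

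A few copies departed from their parents in libraries of either genotype. Gm5131, a copy of Acadm, which encodes medium-chain acyl-CoA dehydrogenase of fatty acid oxidation, had 342, 618 and 295 reads in WT and 633, 455, 29 and 459 in DKO. It held 1.52% to 1.69% of Acadm reads in 6 libraries and 0.138% in DKO replicate 3, so its ratio SD of 1.31 came from that library. Acadm itself had an SD of 0.46. An exon of the noncoding gene Gm45703 overlaps Gm5131 on the opposite strand and had 0 reads in every library.

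Gm12892, a copy of the brain-type creatine kinase gene Ckb, had 228, 41 and 270 reads in WT and 173, 45, 55 and 72 in DKO. Its share of Ckb reads was 6.43% to 7.06% in WT replicates 1 and 4 and DKO replicate 1 and 2.23% to 3.26% in the other 4 libraries. Gm13736, identical to the signal recognition particle gene Srp9, held 50%, 15.9% and 16.2% of Srp9 reads in WT and 40.9%, 31.2%, 5.85% and 13.2% in DKO, a ratio SD of 1.06. Prdx2-ps1 held 3.79% and 3.99% of the reads of the peroxidase gene Prdx2 in WT replicate 4 and DKO replicate 1 and 1.58% to 1.86% elsewhere. Gm13736 and Prdx2-ps1 were chosen after their values were seen. In each of these 3 pairs low and high libraries occurred in both genotypes.

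**Figure D5:**
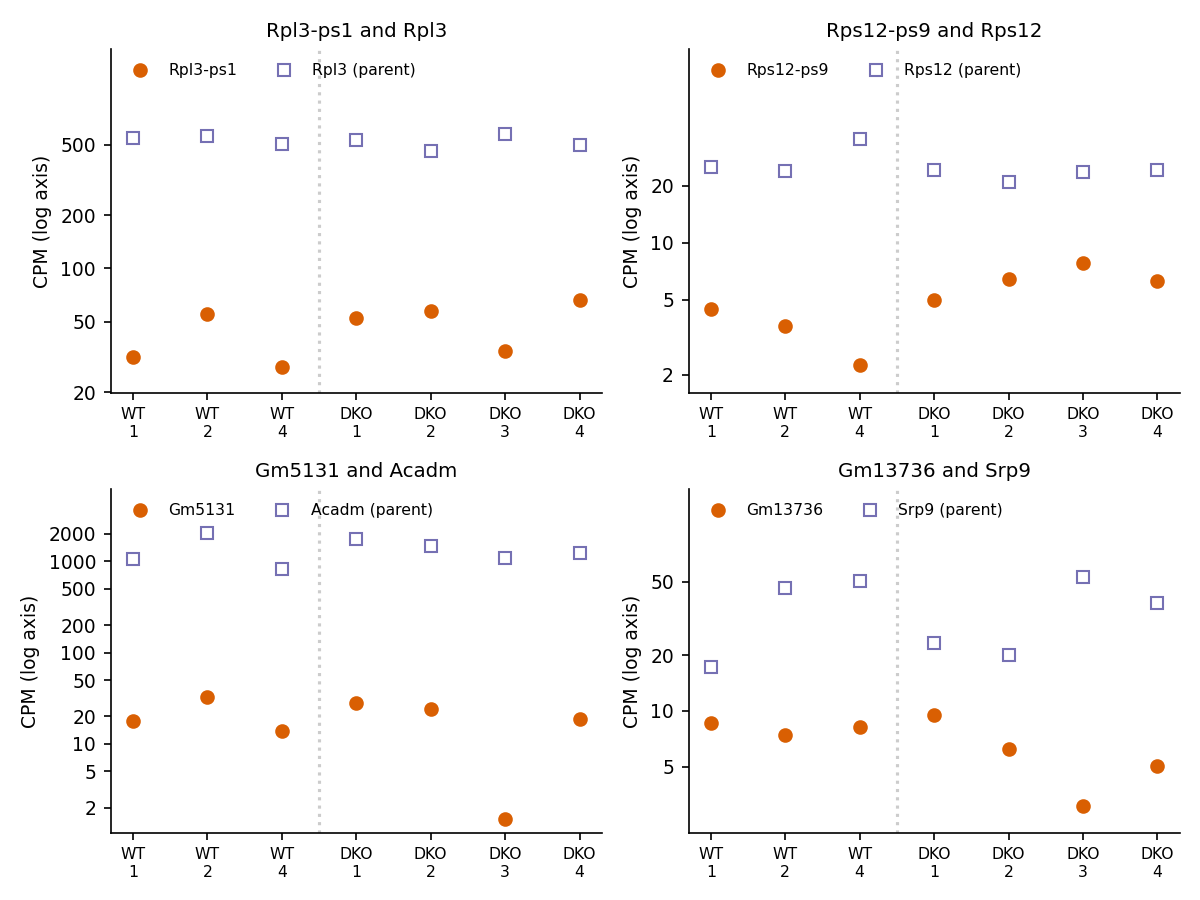
CPM (log axis) of 4 pseudogenes, filled circles, and their parents, open squares, in each of the 7 libraries. Gm5131 lies far below its other values in DKO replicate 3 alone, Rps12-ps9 lies higher in all 4 DKO libraries, and Rpl3-ps1 and Gm13736 vary within both genotypes while Rpl3 stays nearly level.

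In 10 of the 118 pairs (8.47%) the ratio's WT and DKO libraries did not overlap, with 3 lower and 7 higher in DKO. An unadjusted exact permutation p of 0.0286 was reached by 5 pairs. With no difference between genotypes, about 1 pair in 35 reaches that p, so some such pairs arise by chance. Among the 5 are Rps12-ps9 and Gm5835, which entered the set through their DKO libraries, and Gm11539. The others were Gm9755 against Tufm, a mitochondrial elongation factor gene, at 8.67% to 9.34% of the parent's reads in WT and 10.1% to 10.4% in DKO, and Gm13493 against Ppia, which encodes cyclophilin A, at 1.19% to 1.53% and 1.59% to 1.86%. Over all 118 pairs the median DKO minus WT difference of the log2 ratio was -0.005, and over the ribosomal pairs 0.001. For Gm11221 against Fcf1, a gene of ribosomal RNA processing, the difference was -0.53, at 5.46% to 7.25% in WT and 4.002% to 5.53% in DKO. Gm11221 had a DKO mean under 5 CPM and entered the set through its WT libraries, so its values are a description.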

How the data were processed

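The authors deposited raw read counts per Ensembl gene, a filtered copy of them, and a CPM signal table with TMM scaling (edgeR's normalization for composition). Reads were aligned with STAR 2.5.2a, and the builds listed are GRCm38 (mm10) and GRCh38, per the submitters' processing notes. Neither the labels nor the notes name the counter, the annotation release or the strand setting. The deposited TMM signal chose the members, after 69 repeated rows were dropped, and 1 gene above the limit is not reported here. The members and lists were chosen with earlier results of these data known.

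From the raw counts, 24 rows that are no Ensembl gene (at most 0.000697% of a library) were left out. DKO was tested against WT with edgeR 4.0.16 (R 4.3.3, quasi-likelihood F test, TMM, filterByExpr with a minimum count of 10, two-sided, Benjamini-Hochberg over 15394 genes). Fold changes are log2. DESeq2 1.42.0, limma 3.58.1 (voom), other scaling, no count filter, a length and GC trend, a replicate block and leaving out each library were alternatives. Recounting the pairs without each library, with the trend, by DESeq2 and with the block, a second equally close parent, counts without members whose mean was under the limit in 1 genotype, and a stricter ribosomal list, were added after seeing the data. Log2 CPM and ratios used a prior count of 2. Ratios were tested 1 pair at a time by an exact two-sided permutation over 35 splits, with no adjustment. The tests were checked on simulated data. P-values measure the spread between these animals.

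Parents came from blastn 2.17.0 against GENCODE M21 protein-coding transcripts (GRCm38, at least 80% identity over 50% of the length, overlapping genes left out). The counting SD treats reads as independent, and the libraries carry no molecular identifiers. No library repeated another (chi-square per gene at least 40.8).

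Named pseudogenes were the 10 with the highest mean, the 12 highest with a ribosomal parent, the 5 with the smallest p in each direction, those with the 5 widest ranges, the 5 largest and 5 smallest differences from the parent, the 5 smallest ratio ranges and those at the limit. Any other name is an example of its group or is marked as picked with its values known.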

Additional observations from a re-analysis of the deposited data

Results flagged for a closer look

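Among 86 groups of 4 DKO values examined (levels and ratios of the 44 pseudogenes named by rule), 5 had 1 library far from the other 3, judged by the gap to the nearest other value as a share of the whole range. Chance alone gives about 1 in 20 such groups. For Gm5131, DKO replicate 3 lay at a log2 CPM of 0.66 against 4.25 to 4.799 in the others (gap share 0.867), and its log2 ratio to Acadm was -9.41 against -6.03 to -5.95 (gap share 0.976). In the remaining 3, DKO replicate 2 was the low library. Rpl14-ps1 lay there at 3.56 against 4.22 to 4.23 (gap share 0.979), Gm15427 at 2.30 against 2.83 to 2.89 (gap share 0.899) and Gm12183 at 2.48 against 3.00 to 3.09 (gap share 0.849).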

How the results depend on the processing

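With the length and GC trend removed, 19 pseudogenes were lower and 10 higher at an unadjusted p under 0.05 (12.2% and 4.38% of all genes), and the medians moved to -0.15 for all pseudogenes, -0.16 for the ribosomal ones and -0.22 for ribosomal parents, while 91 of 118 pairs had the same sign (108 without it). The number at an adjusted p under 0.05 was 16 by DESeq2 and 0 under the other alternatives, edgeR or limma. Leaving out 1 library gave 20 to 52 lower (20 without WT replicate 4, 28 without DKO replicate 2). It gave 2 to 7 higher (7 without WT replicate 2), with no share of all genes given for these fits. Pairs whose ratio groups did not overlap numbered 13 to 21 (10 with all libraries), where fewer libraries make separation easier. The ribosomal median ran from -0.58 to -0.26, the latter without DKO replicate 2. Same-numbered WT and DKO libraries did not all deviate together (correlations across genes of -0.13, 0.16 and 0.14), so the numbers were not taken as pairing. With members under the limit in 1 genotype left out, 38 were lower and 1 higher, and DESeq2 called 13 as lower. A replicate block gave 36 lower and 4 higher, with medians of -0.38 and, for the ribosomal copies, -0.44.

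Signs of small fold changes turned in these cases. Without the trend, Gm5424 was at 0.026, Fth1-ps at 0.22, Ap2m1-ps at 0.11, Rpl14-ps1 at 0.059, Gm2199 at 0.18 and Gm6055 at 0.065. With 1 library left out, Gm5424 ran from -0.27 to 0.014, Fth1-ps from -0.17 to 0.069, Ap2m1-ps from -0.21 to 0.030, Gm5131 from -0.54 to 0.17, Gm6368 from -0.39 to 0.13 and Rab11b-ps2 from -0.031 to 0.41. With the block, Gm5131 was at 0.21. The cause was not tested. Of the other values of named pseudogenes, 547 kept direction and side of the threshold and 10, by DESeq2, passed it. All 493 ratio differences moved by less than the SD of their ratio, though with 1 library left out the exact test cannot pass 0.05. Depth limits the ratios: counting alone gives a median SD of 0.12.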
